A study of Mus musculus with 28 samples.

Results

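The TNF receptor family co-stimulators described here are 8 genes: Tnfrsf4, Tnfrsf9, Tnfrsf18, Tnfrsf1b, Tnfrsf25, Cd27, Fas and the adaptor Traf1. They were taken by name from tables of 43430 gene IDs, and each of the 8 was measured in every one of the 28 libraries and passed the filter on low counts in each comparison. RNA was measured in regulatory T (Treg) cells sorted as CD4+ YFP-Foxp3+ CD25+ from C57BL/6NJ mice. Uqcrfs1 encodes RISP, the Rieske iron-sulfur protein of complex III of the respiratory chain. RISP was intact (RISP_WT, n = 4) or knocked out (RISP_KO, n = 4) in 3-week-old mice. It was likewise intact (RISP_Chimera_WT, n = 4) or knocked out (RISP_Chimera_KO, n = 4) in chimeras aged 8 to 12 weeks. The in vitro libraries came from RISP WT cells of 3-week-old mice (n = 3 each), without inhibitor or treated with piericidin at 1 µM (blocks complex I), 3-NPA at 500 µM (3-nitropropionic acid, blocks complex II) or antimycin A at 1 µM (blocks complex III). The comparisons ask how loss or inhibition of complex III, and inhibition of complexes I and II, bore on these genes in Treg cells. The labels do not say what the chimeras were made from, which promoter drove the deletion, how long the inhibitors were applied, or whether replicates were separate mice, so the p-values cover only the spread among the libraries at hand, and that spread may be technical.

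Receptors of the TNF receptor superfamily sit on the cell surface and are engaged by trimeric ligands of the TNF family, made largely by antigen-presenting cells and activated lymphocytes. Most of them recruit TRAF adaptors that pass the signal to NF-kB and the MAP kinases, while a few carry a death domain that can start apoptosis. Treg cells are known for high surface levels of several of these co-stimulators, which support their survival, expansion and differentiation, and which are targets of antibodies in cancer and autoimmunity.

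Uqcrfs1 was read first as a check of the labels. It stood at 5.20 to 7.28 CPM (read counts scaled to a fixed library size after TMM normalization) in RISP_KO and at 151 to 189 CPM in RISP_WT. In the chimeras it stood at 4.83 to 11.3 CPM with the knockout and 72.7 to 87.7 CPM without. Libraries held 36804052 to 50769961 counts in RISP_WT and 28446051 to 36008431 counts in RISP_KO. Depth thus did not overlap between these 2 genotypes, and its part in the results was not tested. The libraries held 20437386 to 31019835 counts in chimeras and 2707199 to 3445930 counts in vitro. Of the genes behind the sort, Il2ra (CD25), Cd4 and Cd3e had group means of 367 to 2924 CPM, and Foxp3 had group means of 452 to 784 CPM in the chimera and in vitro groups. Foxp3 read 33.2 ± 2.26 CPM (SD, n = 4) in RISP_WT and 33.5 ± 5.78 CPM (SD, n = 4) in RISP_KO. The 3-week-old libraries were made with another kit than the rest, so levels are not compared between the 3 tables.

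In each group of 3-week-old mice and in each in vitro group, Tnfrsf4 (OX40) had the highest level per length of the 8 genes, clear of the next gene in every library. Per kilobase of gene length it read 244 ± 49.7 CPM (SD, n = 4) in RISP_WT, 393 ± 43.9 CPM (n = 4) in RISP_KO and 363 ± 28.2 CPM (n = 3) in untreated cells in vitro. Tnfrsf1b (TNF receptor 2) followed in RISP_WT at 125 ± 13.3 CPM per kb. Tnfrsf18 (GITR, 88.7 ± 9.49) and Cd27 (78.7 ± 2.12) came next in that group, with overlapping ranges. Fas (52.0 ± 3.69), Tnfrsf9 (35.5 ± 7.09), Tnfrsf25 (24.2 ± 2.13) and Traf1 (16.2 ± 0.74 CPM per kb) stood below them in that order, and no 2 neighbours among these 4 overlapped.

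The order differed in the chimeras, whose libraries were made with another kit than those of RISP_WT and RISP_KO. Age, chimerism and kit cannot be told apart in that change of order. In RISP_Chimera_WT, Cd27 (59.4 ± 3.08 CPM per kb), Tnfrsf4 (57.8 ± 6.58) and Tnfrsf1b (53.9 ± 5.04) shared the top with overlapping ranges, and Tnfrsf9 was lowest per length at 9.59 ± 0.80 CPM per kb. These orders rest on the deposited lengths, 10994 bases for Tnfrsf9 and 10605 for Traf1 against 2041 for Fas. Before division by length, the mean of Tnfrsf9 in RISP_Chimera_WT (105 CPM) lay above those of Tnfrsf25 (83.2 CPM) and Fas (50.5 CPM). In untreated cells in vitro Tnfrsf9 was the fourth at 74.9 ± 6.42 CPM per kb, and Tnfrsf25 (21.4 ± 1.14), Fas (18.5 ± 2.79) and Traf1 (17.2 ± 1.06) could not be ordered, since each range overlapped the next.

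**Figure D1:**
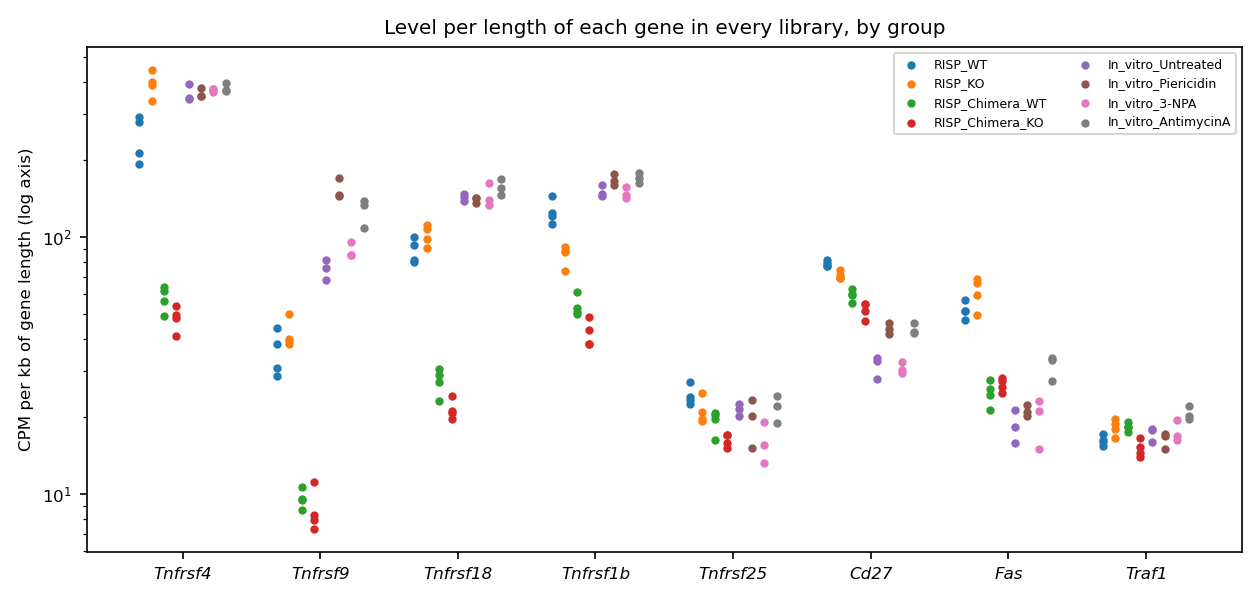
Level of each gene per kilobase of its length (CPM per kb, log axis) in each of the 28 libraries, 1 point a library, coloured by group. Tnfrsf4 stands highest in the 3-week-old and in vitro groups, and Tnfrsf9 lowest in both chimera groups.

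In Treg cells of 3-week-old mice, the knockout came with more Tnfrsf4 RNA and less Tnfrsf1b RNA, and the other 6 genes were not called. A gene is called here at a Benjamini-Hochberg adjusted p under 0.05 over all genes tested with edgeR's quasi-likelihood test. Among all 13832 genes tested, 9.86% were called (4.78% higher, 5.08% lower), against 1 higher and 1 lower of the 8 genes. The median log2 fold change of the 8 genes was 0.19, beside 0.0044 over all genes tested.

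Tnfrsf4 encodes OX40, a receptor that appears on T cells after activation and promotes their survival. It read 546, 754, 497 and 724 CPM in the 4 RISP_WT libraries and 1151, 1003, 1029.5 and 875 CPM in the 4 RISP_KO libraries. Every knockout library lay above every wild-type library, as for 7.89% of all genes tested. The log2 fold change was 0.69 ± 0.14 (SE, 1.61-fold, edgeR adjusted p = 0.0116, n = 4 per group).

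Tnfrsf1b encodes TNF receptor 2, the TNF receptor without a death domain, through which TNF expands Treg cells. It read 519.6, 603, 471 and 508 CPM in RISP_WT and 369, 384, 309 and 367 CPM in RISP_KO. All knockout libraries lay below all wild-type libraries, as for 9.49% of all genes tested. The log2 fold change was -0.56 ± 0.10 (SE, 1.47-fold lower, edgeR adjusted p = 0.00528, n = 4 per group).

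Cd27, the receptor for CD70, also had groups that did not overlap. It read 367, 370.2, 378 and 390.0 CPM in RISP_WT and 331, 356, 332 and 339.9 CPM in RISP_KO, but the step was small, at a log2 fold change of -0.15 ± 0.06 (SE, edgeR adjusted p = 0.182). The groups of the other 5 genes overlapped. Tnfrsf18, next to Tnfrsf4 on the chromosome, read 416 to 519.9 CPM in RISP_WT and 472 to 579 CPM in RISP_KO (0.20 ± 0.10, adjusted p = 0.220, edgeR). The death receptor gene Fas read 97.4 to 116 CPM against 102 to 139.7 CPM with the knockout (0.23 ± 0.11, adjusted p = 0.204, edgeR). Traf1, an adaptor and NF-kB target that binds several of these receptors, had a log2 fold change of 0.17 ± 0.08 (edgeR adjusted p = 0.204). Tnfrsf9 (4-1BB) had 0.24 ± 0.14 (edgeR adjusted p = 0.312) and Tnfrsf25 (DR3) -0.20 ± 0.10 (edgeR adjusted p = 0.264).

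Some markers of other cells moved with the knockout in this table. The summed level of 12 macrophage and monocyte markers was 17.9 to 55.2 CPM in RISP_WT and 7.50 to 13.6 CPM in RISP_KO, and that of 10 B cell markers was 44.7 to 60.0 CPM against 25.1 to 33.8 CPM. Of these lists 4 of 11 tested macrophage markers fell, among them C1qb, Adgre1 and Csf1r, and 1 of 7 tested B cell markers, Cd79b (from 40.4 to 22.6 CPM). Of 3 tested dendritic cell markers 1 fell, Xcr1 (-1.69 ± 0.42). Plasma cell markers (7 genes) summed to 222 to 272 CPM in RISP_WT and 378 to 461 CPM in RISP_KO. Most of these sums was Xbp1, which rose from 214 to 380 CPM (edgeR adjusted p = 7.34e-04), while the other 4 of 5 tested plasma cell markers had log2 fold changes below 0 and the median log2 fold change of the list was -0.48. Natural killer cell markers (6 genes) summed to 5.29 to 9.11 CPM against 42.2 to 61.2 CPM, which came from Gzma (1.13 to 34.5 CPM) and Eomes (1.59 to 13.5 CPM), the 2 of 3 tested markers that rose. Il2ra, a gene of the sort, rose as well, from 720 ± 94.7 to 1084 ± 80.6 CPM without overlap (0.59 ± 0.10, edgeR adjusted p = 0.00441), and its part in the results on the 8 genes was not tested. Klra8 of the natural killer cell list, Tnfrsf17 of the plasma cell list and Clec9a of the dendritic cell list were at 0 in every library of this table. With the mean level of the B cell, plasma cell and macrophage markers as a covariate, Tnfrsf4 had a log2 fold change of 0.86 ± 0.29 (SE, edgeR adjusted p = 0.273) and Tnfrsf1b -0.78 ± 0.19 (edgeR adjusted p = 0.107). That covariate did not overlap between the genotypes, at -0.0122 to 1.07 in RISP_WT and -0.904 to -0.0459 in RISP_KO, on a log2 scale centred over the table. In bulk RNA of sorted cells, fewer cells of a type and less RNA per cell cannot be told apart. Nor can RNA of other cells be told from RNA of the same genes made by the Treg cells.

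**Figure D2:**
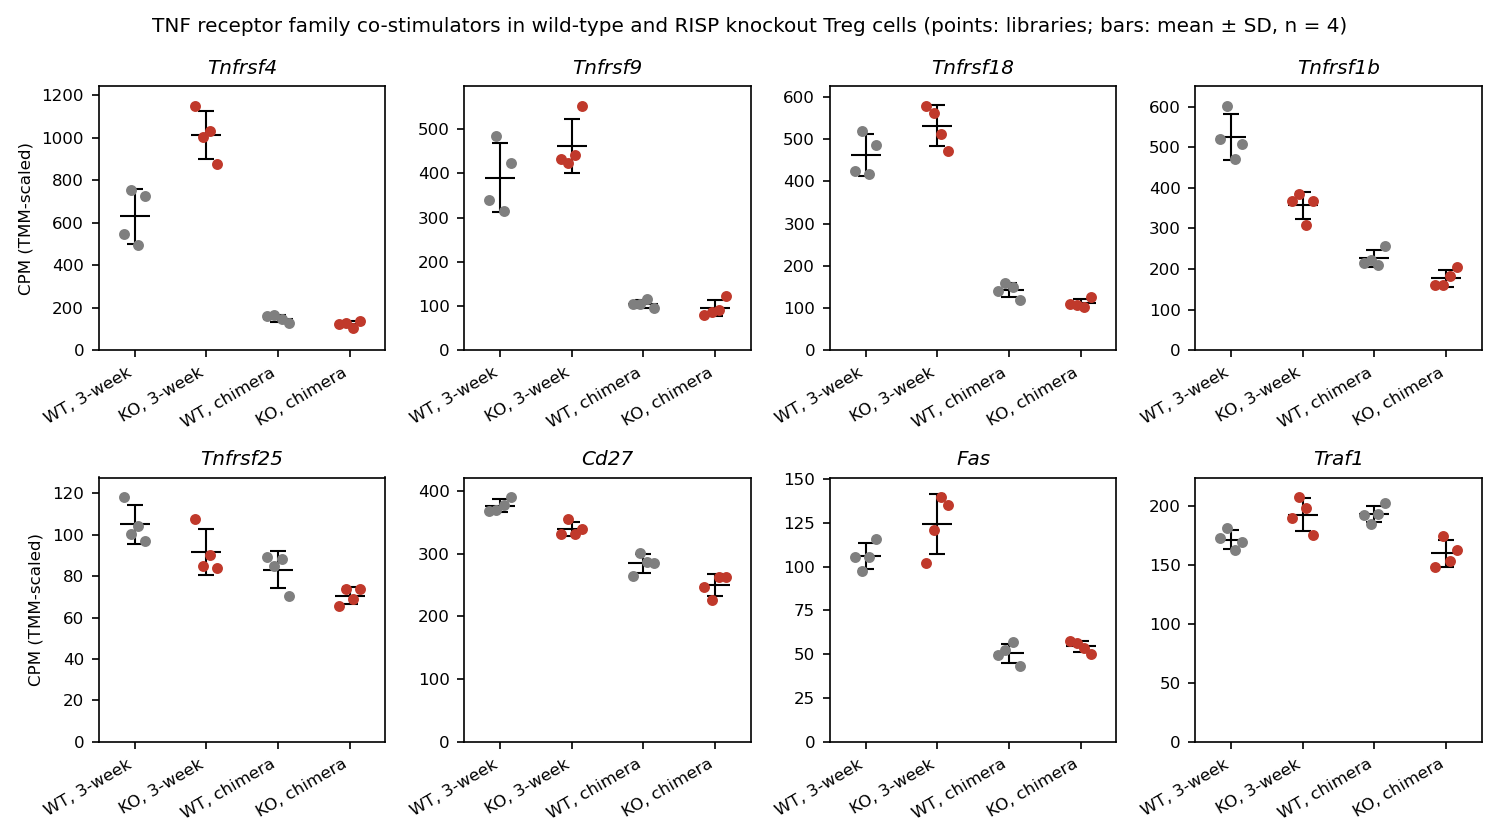
Level (CPM, from 0) of each gene in wild-type (grey) and RISP knockout (red) Treg cells of 3-week-old mice and of chimeras; points are libraries and bars the mean ± SD (n = 4). Tnfrsf4 runs from 497 to 754 CPM in RISP_WT and from 875 to 1151 CPM in RISP_KO, while in the chimeras its ranges overlap (127 to 165 CPM against 106 to 139 CPM).

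Other genes of the pathway were read from lists. Of 5 ligands of these receptors that could be tested, 0 were called by edgeR (2 at an unadjusted p under 0.05, 2 called by DESeq2). Over all genes edgeR tested in this comparison, 25.5% had an unadjusted p under 0.05, and DESeq2 called 2148 genes. Tnfsf9, the ligand of 4-1BB, read 4.90 ± 0.96 CPM in RISP_KO and 7.93 ± 2.36 CPM in RISP_WT (log2 fold change -0.69 ± 0.24, edgeR adjusted p = 0.0960). Of 17 TRAF and death-domain adaptors 1 rose, Traf4, from 43.1 ± 4.18 to 66.5 ± 9.35 CPM (0.63 ± 0.12, edgeR adjusted p = 0.00864). Of 11 NF-kB subunits and kinases 0 were called by edgeR (2 at an unadjusted p under 0.05, 2 by DESeq2). These 2 were Nfkb2 (0.34 ± 0.10, edgeR adjusted p = 0.0504) and Relb (0.29 ± 0.09, edgeR adjusted p = 0.0598), subunits of the non-canonical branch that OX40 and related receptors can engage. Bcl3, an atypical NF-kB inhibitor protein, was the 1 gene that rose among 11 feedback targets (0.65 ± 0.14, edgeR adjusted p = 0.0138). Among 12 other receptors of the family 2 fell, the BAFF and APRIL receptors Tnfrsf13c (from 3.64 to 1.37 CPM) and Tnfrsf13b (from 139.5 to 93.6 CPM). Among 10 genes listed as co-stimulators of other families 3 fell, Cd226 (-0.95 ± 0.10), Cd5 (-0.60 ± 0.09) and Cd28 (-0.57 ± 0.11). In the same list 2 rose, Cd2 (0.31 ± 0.07) and Dpp4 (0.35 ± 0.09), these last named after their values were seen. With the covariate for other cells, Traf4, Bcl3, Tnfrsf13c, Tnfrsf13b, Cd226, Cd5 and Cd28 were not called by edgeR.

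In chimeras, 7 of the 8 genes had lower means with the knockout, and 0 of 8 were called by edgeR, where 0.708% of 14399 genes were called. At an unadjusted p under 0.05, 6 of the 8 genes were lower, beside 12.9% of all genes in either direction, and DESeq2 called 3 of the 8, beside 3.21% of the genes it tested. The median log2 fold change of the 8 genes was -0.25, beside 3.6e-04 over all genes tested.

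Traf1 read 193, 185, 193 and 202 CPM in RISP_Chimera_WT and 148, 175, 153 and 162 CPM in RISP_Chimera_KO. Its log2 fold change was -0.27 ± 0.07 (SE, edgeR adjusted p = 0.113, n = 4 per group), and DESeq2 called it at an adjusted p of 0.0248. Of 8 edgeR fits that left out 1 library, 1 called Traf1, the fit without RISP_Chimera_KO replicate 2 (-0.32, adjusted p = 0.0480). In these fits the adjusted p ran up to 0.302. Tnfrsf1b read 215, 222, 211 and 257 CPM without and 161, 160.4, 182 and 205 CPM with the knockout (-0.35 ± 0.09, edgeR adjusted p = 0.126, DESeq2 adjusted p = 0.0193). Traf1, Tnfrsf1b and Cd27 were the 3 genes whose knockout libraries all lay below all wild-type libraries, as for 4.10% of all genes tested (3.40% lay above instead). Cd27 moved least of these, from 265 to 301 CPM down to 226 to 263 CPM (-0.19 ± 0.07, edgeR adjusted p = 0.295).

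Tnfrsf18 encodes GITR, a receptor carried by resting Treg cells. It read 141, 159, 151 and 119 CPM in RISP_Chimera_WT and 109.9, 107, 102 and 125 CPM in RISP_Chimera_KO, overlapping through the lowest wild-type library (-0.36 ± 0.09, edgeR adjusted p = 0.126, DESeq2 adjusted p = 0.0217). Tnfrsf4 read 127 to 165 CPM against 106 to 139 CPM with the knockout (-0.26 ± 0.10, edgeR adjusted p = 0.289). Tnfrsf25, a death-domain receptor for TL1A that expands Treg cells when engaged, had -0.24 ± 0.09 (edgeR adjusted p = 0.274) and Tnfrsf9 -0.15 ± 0.12 (edgeR adjusted p = 0.653). Fas was the 1 gene with a higher mean in RISP_Chimera_KO, at 50.3 to 57.7 CPM against 43.5 to 56.8 CPM (0.11 ± 0.09, edgeR adjusted p = 0.674).

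In the pathway lists of the chimeras, 0 genes were called by edgeR among ligands, other receptors, adaptors, NF-kB subunits and NF-kB feedback targets. At an unadjusted p under 0.05 these lists held 1, 2, 3, 3 and 2 genes in that order, and DESeq2 called 0, 0, 1 (Traf5), 2 (Rel and Relb) and 2 (Icam1 and Tnip1), named after their values were seen. Among 10 co-stimulators of other families 2 fell, Icos from 147 ± 15.9 to 93.1 ± 17.6 CPM (-0.66 ± 0.12, edgeR adjusted p = 0.0328) and Slamf6 from 227 ± 9.80 to 176 ± 15.2 CPM (-0.37 ± 0.07, edgeR adjusted p = 0.0432). Leaving out 1 library ended each of these 2 calls in 7 of 8 fits, with adjusted p up to 0.121 for Icos and 0.137 for Slamf6. Macrophage markers summed to 29.9 to 69.4 CPM in RISP_Chimera_WT and 36.3 to 111 CPM in RISP_Chimera_KO. Replicates 2 and 4 of RISP_Chimera_KO had the highest scores for markers of other cells (0.79 and 0.87). Without these 2 libraries 0 of the 8 genes were called by edgeR as well.

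The knockout effect on 3 of the 8 genes differed between the 2 settings. In 1 fit of the 16 libraries, the chimera effect minus the 3-week-old effect was called for 3.27% of 15580 genes (1.23% higher, 2.04% lower), and for Tnfrsf4, Tnfrsf18 and Traf1 it was lower. Tnfrsf4 went up in 3-week-old mice (0.69 ± 0.14) and had a mean below wild type in chimeras (-0.26 ± 0.10), a difference of -0.97 ± 0.19 on the log2 scale (SE, edgeR adjusted p = 0.00663). For Traf1 the difference was -0.46 ± 0.10 (edgeR adjusted p = 0.0163), from 0.17 ± 0.08 and -0.27 ± 0.07 in the 2 settings. For Tnfrsf18 it was -0.58 ± 0.15 (edgeR adjusted p = 0.0398), from 0.20 ± 0.10 and -0.36 ± 0.09. The interval of the difference reached from -1.36 to -0.57 for Tnfrsf4, from -0.67 to -0.25 for Traf1 and from -0.90 to -0.27 for Tnfrsf18 (95% confidence).

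For the other 5 genes no difference was called. In simulated counts of that design (15133 genes), 11.9% of 1.5-fold and 44.8% of 2-fold changes were found, in genes drawn at random from all that passed the filter. Tnfrsf1b had a lower mean with the knockout in both settings, and its difference of 0.19 ± 0.14 had an interval of -0.12 to 0.49 (edgeR adjusted p = 0.562). The intervals were -0.84 to 0.02 for Tnfrsf9, -0.36 to 0.23 for Tnfrsf25, -0.27 to 0.16 for Cd27 and -0.46 to 0.17 for Fas. Age, chimerism and library kit changed together between the 2 settings and cannot be told apart. The log2 fold change of Uqcrfs1 also differed between them (difference 1.20 ± 0.27, edgeR adjusted p = 0.0191, not called with the covariate for other cells). Its means were 175 CPM in RISP_WT and 6.15 CPM in RISP_KO, and 81.7 CPM in RISP_Chimera_WT and 6.75 CPM in RISP_Chimera_KO. Whether this difference reflects the extent of the deletion was not tested. With the covariate for other cells 0 of the 3 differences were called, at -1.10 ± 0.27 for Tnfrsf4 (edgeR adjusted p = 0.0760), -0.54 ± 0.14 for Traf1 (0.108) and -0.56 ± 0.22 for Tnfrsf18 (0.357). The Tnfrsf18 call was also lost in 12 of 16 fits that left out 1 library (adjusted p up to 0.111), and the Traf1 call without RISP_WT replicate 3 (adjusted p = 0.0669).

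Genes of the NF-kB lists showed differences of the same kind. Relb (-0.65 ± 0.13, edgeR adjusted p = 0.0103) and Nfkb2 (-0.60 ± 0.15, edgeR adjusted p = 0.0391) were the 2 of 11 subunits and kinases with a called difference, both lower in the chimera effect. Bcl3 was the 1 of 12 feedback targets (-0.68 ± 0.17, edgeR adjusted p = 0.0355). The Nfkb2 and Bcl3 calls were each lost in 11 of 16 fits that left out 1 library, with adjusted p up to 0.114 and 0.0768, and with the covariate for other cells 0 of these 3 genes were called. Of 10 genes listed as co-stimulators of other families 6 had a called difference. It was lower in the chimera effect for Dpp4 (-0.69 ± 0.13) and Cd2 (-0.52 ± 0.11) and higher for Cd226 (0.71 ± 0.13). Icos (-0.72 ± 0.18), Cd28 (0.54 ± 0.14) and Cd5 (0.54 ± 0.12) are named after their values were seen. With the covariate for other cells, Dpp4, Cd226 and Cd2 had no called difference (edgeR adjusted p = 0.118, 0.187 and 0.133). Among ligands, other receptors and adaptors 0 were called by edgeR (0, 2 and 4 at an unadjusted p under 0.05, 0 by DESeq2 in each). Over all genes edgeR tested for this difference, 16.7% had an unadjusted p under 0.05.

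**Figure D3:**
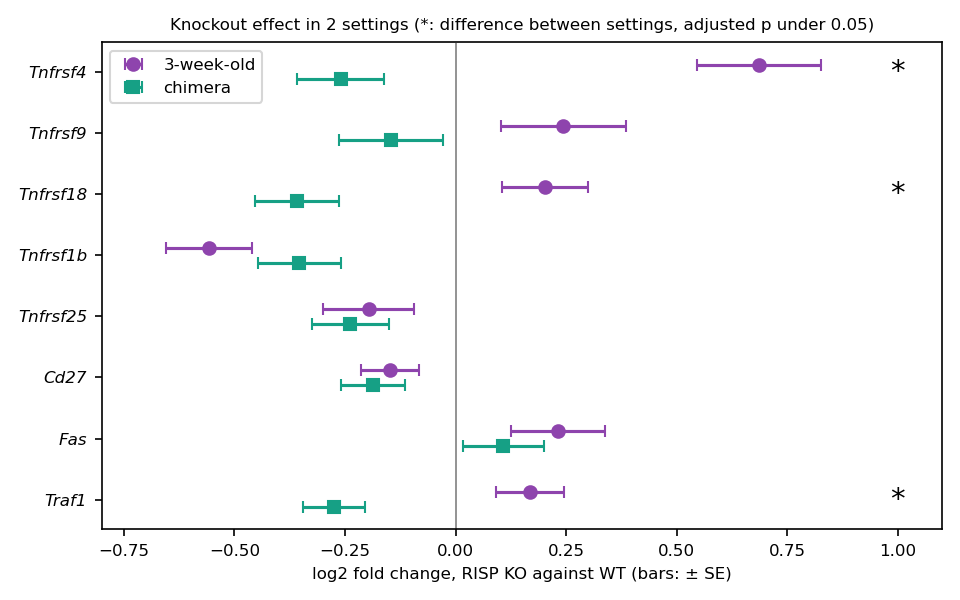
Log2 fold change of each gene with RISP knockout (± SE) in 3-week-old mice (circles) and chimeras (squares), with a star where the difference between the settings had an adjusted p under 0.05. Tnfrsf4 lies at 0.69 and -0.26, and Tnfrsf1b below 0 in both settings.

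In vitro, Tnfrsf9 and Cd27 rose with piericidin and with antimycin A, Fas rose with antimycin A, and 0 of the 8 genes were called with 3-NPA. The 3 comparisons share the same 3 untreated libraries, so they are not independent of each other. Genes called made up 13.6% of 11689 with piericidin (5.62% higher, 7.93% lower), 3.23% with 3-NPA (1.35% higher, 1.87% lower) and 15.0% with antimycin A (6.50% higher, 8.50% lower). Of the 8 genes, edgeR called 2, 0 and 3, each of them higher. With 3-NPA, 2 of the 8 had an unadjusted p under 0.05, 1 higher and 1 lower, beside 16.4% of all genes, and DESeq2 called 0, beside 6.78% of the genes it tested. With antimycin A each of the 8 genes had a higher mean than untreated, and 5 of them lay above the untreated range without overlap, as did 15.1% of all genes (15.9% lay below). The doses differed, at 1 µM for piericidin and antimycin A and 500 µM for 3-NPA.

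Tnfrsf9 encodes 4-1BB, an inducible receptor on activated T cells and Treg cells that recruits TRAF1 and TRAF2. It read 750.4, 830.1 and 891 CPM in untreated cells, 1591, 1866 and 1597 CPM with piericidin, 934, 1053 and 938 CPM with 3-NPA and 1197, 1469 and 1524 CPM with antimycin A. Every library of each inhibitor lay above every untreated library, as for 13.7%, 9.43% and 15.1% of all genes with piericidin, 3-NPA and antimycin A. Piericidin gave a log2 fold change of 1.03 ± 0.09 (SE, 2.04-fold, edgeR adjusted p = 2.19e-10, n = 3 per group), rank 1 of 11689 genes by p-value. Antimycin A gave 0.76 ± 0.09 (1.70-fold, edgeR adjusted p = 2.33e-08). With 3-NPA it was 0.24 ± 0.09, which was not called (edgeR adjusted p = 0.121).

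Cd27 is carried by naive and central T cells, and its ligand CD70 appears on activated antigen-presenting cells. It read 134, 161 and 158 CPM in untreated cells, 201, 210.0 and 222 CPM with piericidin and 205, 203 and 222 CPM with antimycin A. These treated libraries all lay above the untreated ones, while 3-NPA (156, 142 and 145 CPM) lay among them. The log2 fold change was 0.48 ± 0.10 with piericidin (SE, edgeR adjusted p = 9.72e-04), 0.48 ± 0.10 with antimycin A (edgeR adjusted p = 8.78e-04) and -0.03 ± 0.10 with 3-NPA (edgeR adjusted p = 0.921). Cd27 overlaps Vamp1 on the opposite strand, and the strand setting of the counting is not given in the sources used here. Reads from the stretch that these 2 genes share therefore cannot be told apart. Vamp1 itself read 34.2 CPM in untreated cells, 69.9 CPM with piericidin (1.03 ± 0.20, edgeR adjusted p = 2.63e-04) and 50.7 CPM with antimycin A (0.56 ± 0.20, edgeR adjusted p = 0.05003). Its part in the Cd27 result was not tested. Tnfrsf9 overlaps Camta1 on the opposite strand, which read 13.0 to 17.7 CPM as group means in vitro and was not called with any of the 3 inhibitors.

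Fas encodes the death receptor CD95, whose death domain starts apoptosis when its ligand binds. It read 32.2, 37.3 and 43.5 CPM in untreated cells and 67.8, 56.4 and 69.3 CPM with antimycin A, and the 2 groups did not overlap. The log2 fold change was 0.77 ± 0.19 (SE, 1.71-fold, edgeR adjusted p = 0.00267, n = 3 per group), from 99 to 127 counts per untreated library and 186 to 193 with antimycin A. Fas stood at 41.0 to 45.5 CPM with piericidin (0.19 ± 0.19, edgeR adjusted p = 0.580) and at 30.7 to 46.9 CPM with 3-NPA (0.10 ± 0.19, edgeR adjusted p = 0.858), both overlapping the untreated range.

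The other 5 genes were not called by edgeR with any inhibitor. Traf1 read 188, 169.7 and 190.4 CPM in untreated cells and 208, 233 and 213 CPM with antimycin A (0.26 ± 0.10, edgeR adjusted p = 0.0859, DESeq2 adjusted p = 0.0428). Tnfrsf1b was at 606 to 666 CPM in untreated cells, 667 to 739.9 CPM with piericidin (0.15 ± 0.08, edgeR adjusted p = 0.217) and 679.7 to 746 CPM with antimycin A (0.18 ± 0.08, edgeR adjusted p = 0.126). Tnfrsf25 was lower in every 3-NPA library (57.3 to 82.9 CPM) than in any untreated one (87.7 to 97.6 CPM), as for 11.3% of all genes, at -0.42 ± 0.16 (edgeR adjusted p = 0.134). Tnfrsf4, the gene that rose with the knockout in 3-week-old mice, read 887 to 1019 CPM untreated and 956 to 1023 CPM with antimycin A (0.07 ± 0.08, interval -0.08 to 0.22). Tnfrsf18 read 719 to 767 CPM untreated and 757 to 871 CPM with antimycin A (0.13 ± 0.08, interval -0.04 to 0.29).

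**Figure D4:**
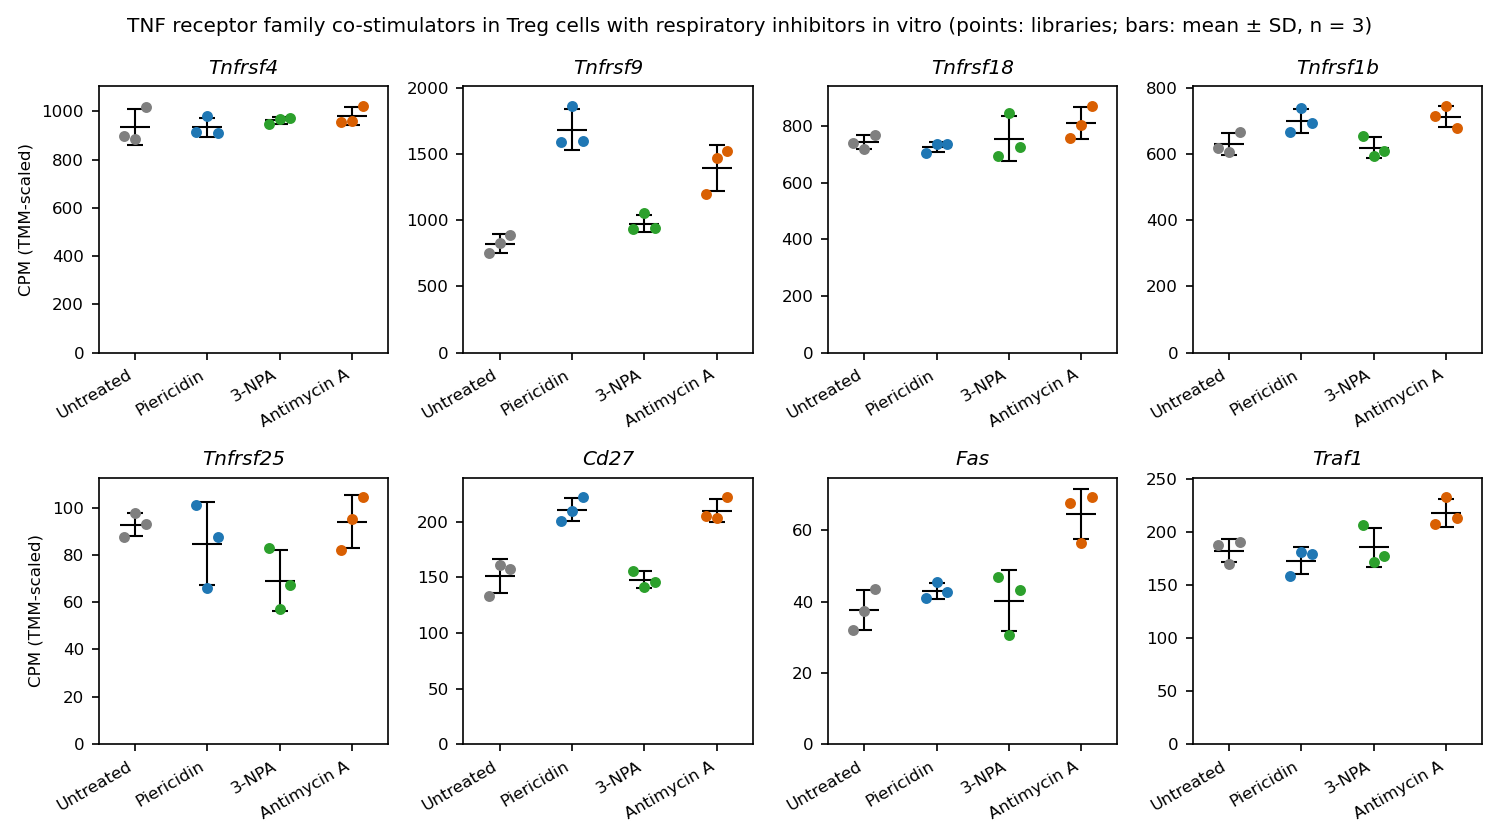
Level (CPM, from 0) of each gene in RISP WT Treg cells in vitro, untreated (grey), with piericidin (blue), 3-NPA (green) or antimycin A (orange); points are libraries and bars the mean ± SD (n = 3). Tnfrsf9 rises from at most 891 CPM untreated to at least 1591 CPM with piericidin, and Fas stands apart with antimycin A at 56.4 to 69.3 CPM.

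The 3 pairs of inhibitors were also compared directly in the same fit. Antimycin A exceeded 3-NPA for Tnfrsf9 (0.52 ± 0.09, edgeR adjusted p = 2.09e-04), Cd27 (0.51 ± 0.10, edgeR adjusted p = 0.00192) and Fas (0.67 ± 0.19, edgeR adjusted p = 0.0294), where 3.98% of all genes were called (1.60% higher, 2.38% lower; groups did not overlap for 11.1% and 10.4%). Of the 8 genes, 5 lay higher without overlap with antimycin A than with 3-NPA, and 0 lower. The Fas call was lost in 4 of 6 fits that left out 1 library, with adjusted p up to 0.172. Piericidin exceeded 3-NPA for Tnfrsf9 (0.79 ± 0.09, edgeR adjusted p = 3.48e-08) and Cd27 (0.52 ± 0.10, edgeR adjusted p = 0.00209), where 4.29% were called (1.87% higher, 2.43% lower).

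Between antimycin A and piericidin, both at 1 µM, edgeR called 0 of the 8 genes. At an unadjusted p under 0.05 there were 3, beside 10.5% of all genes, and DESeq2 called 1, beside 1.81% of the genes it tested. By edgeR, 0.736% of all genes were called (0.436% higher, 0.299% lower). Without overlap lay 3 of the 8 genes higher and 1 lower with antimycin A, beside 8.30% and 7.50% of all genes. Fas was 0.58 ± 0.18 higher with antimycin A on the log2 scale (edgeR adjusted p = 0.163), with an interval of 0.21 to 0.96. Traf1 was 0.33 ± 0.10 higher (edgeR adjusted p = 0.142, DESeq2 adjusted p = 0.0402), with an interval of 0.13 to 0.54. Tnfrsf9 was lower with antimycin A, at -0.27 ± 0.09 (edgeR adjusted p = 0.163) and an interval of -0.44 to -0.10. Cd27 differed by -0.01 ± 0.10, with an interval of -0.21 to 0.20. These intervals are for single genes at 95% confidence and are not adjusted over the genes tested.

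**Figure D5:**
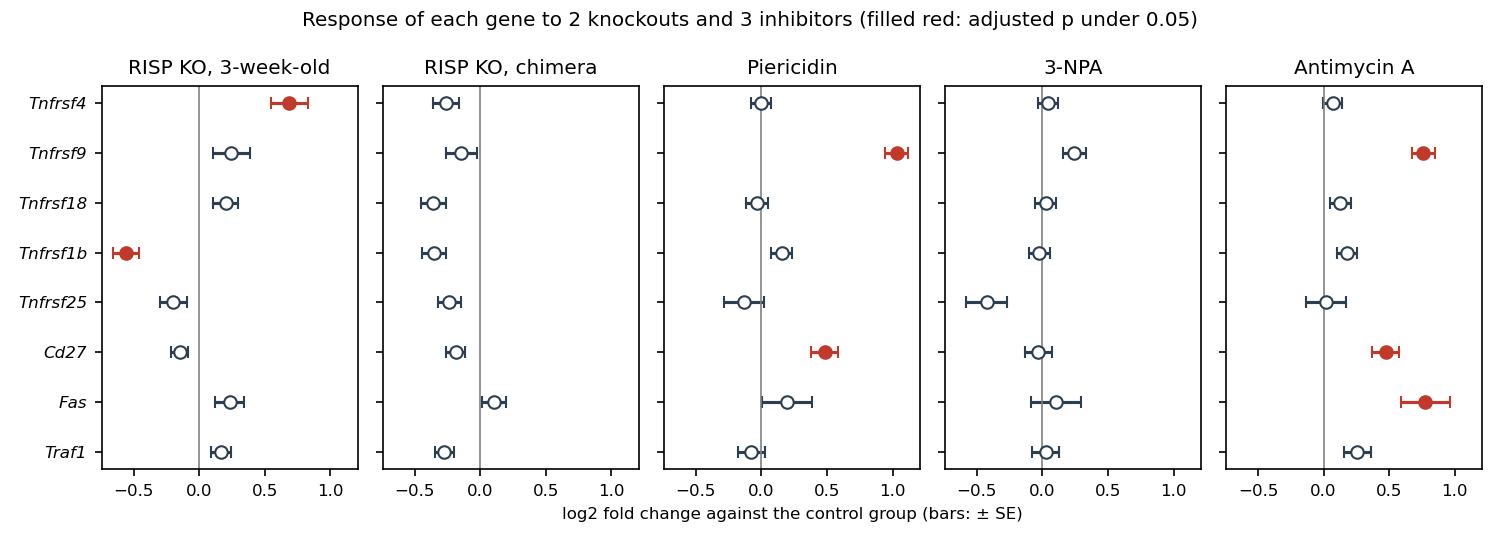
Log2 fold change (± SE) of each gene against its control for both knockouts and the 3 inhibitors, filled red where the adjusted p was under 0.05. Tnfrsf4 and Tnfrsf1b are called in 3-week-old knockouts, Tnfrsf9 and Cd27 with piericidin and antimycin A, and Fas with antimycin A.

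The promoters of the genes that rose in vitro were read to show what they share, since Tnfrsf9 and Cd27 rose under the same 2 inhibitors. The RefSeq windows (GRCm38.p6) span 250 bases before to 50 after each start site, 10 windows for the 8 genes, on the gene's strand, 5′ to 3′. Capitals mark matches, on either strand, to the NF-kB consensus of 10 letters or to the AP-1 site TGANTCA. Tnfrsf9 has 2 start sites, both inside its annotated interval, of which the downstream window holds both motifs. The windows of Tnfrsf9 lie at chr4:150919905-150920204 (upstream) and chr4:150927749-150928048 (downstream) on the plus strand. Those of Cd27 and Fas lie at chr6:125236978-125237277 (minus strand) and chr19:34290409-34290708 (plus strand).
Tnfrsf9 upstream: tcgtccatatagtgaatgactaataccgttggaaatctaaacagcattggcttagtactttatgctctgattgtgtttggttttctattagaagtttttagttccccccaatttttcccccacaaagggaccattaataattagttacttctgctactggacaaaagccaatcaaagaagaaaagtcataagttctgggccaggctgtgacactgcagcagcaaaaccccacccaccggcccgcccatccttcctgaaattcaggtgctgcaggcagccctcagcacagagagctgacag
Tnfrsf9 downstream: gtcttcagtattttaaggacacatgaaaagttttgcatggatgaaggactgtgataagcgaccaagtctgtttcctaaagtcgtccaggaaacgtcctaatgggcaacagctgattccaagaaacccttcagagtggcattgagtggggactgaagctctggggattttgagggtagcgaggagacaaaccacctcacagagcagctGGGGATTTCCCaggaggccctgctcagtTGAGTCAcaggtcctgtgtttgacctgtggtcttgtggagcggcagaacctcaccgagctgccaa
Cd27: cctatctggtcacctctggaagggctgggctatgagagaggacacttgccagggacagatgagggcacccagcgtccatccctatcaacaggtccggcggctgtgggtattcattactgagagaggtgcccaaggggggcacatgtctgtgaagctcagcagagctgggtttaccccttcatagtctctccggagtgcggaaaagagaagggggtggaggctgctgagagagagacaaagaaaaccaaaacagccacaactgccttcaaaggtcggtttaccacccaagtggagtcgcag
Fas: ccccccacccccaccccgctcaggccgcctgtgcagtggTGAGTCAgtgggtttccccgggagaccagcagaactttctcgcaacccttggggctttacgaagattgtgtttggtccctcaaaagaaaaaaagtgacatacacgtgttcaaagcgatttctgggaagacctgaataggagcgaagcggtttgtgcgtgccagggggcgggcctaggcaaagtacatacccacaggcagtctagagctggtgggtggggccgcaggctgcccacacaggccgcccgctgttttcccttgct

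The downstream Tnfrsf9 window holds 2 overlapping NF-kB matches that start at bases 208 and 209, and an AP-1 match at base 236. The Fas window holds an AP-1 match at base 40, and the Cd27 window holds neither motif. Over the 8 genes, 2 of 10 windows held the NF-kB consensus (Tnfrsf9 and Tnfrsf25, each in 1 of 2 windows) and 2 of 10 the AP-1 site (Tnfrsf9 and Fas). Of 32851 promoter windows of the same length, 8.46% held the first and 7.81% the second. These matches describe the letters of the windows and say nothing about binding in these cells.

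The pathway lists were read in vitro as well. Of 5 ligands tested, Tnfsf4 (the ligand of OX40) rose with antimycin A from 7.26 ± 3.24 to 23.4 ± 8.68 CPM (1.68 ± 0.46, edgeR adjusted p = 0.00778), a call lost in 2 of 6 fits that left out 1 library. Lta (lymphotoxin alpha) fell from 107 ± 5.57 CPM to 68.9 ± 7.12 CPM with piericidin and 78.1 ± 16.4 CPM with antimycin A, where the call was lost in 4 of 6 such fits. Of 7 other receptors, Tnfrsf26 rose with each of the 3 inhibitors, from 17.0 ± 3.52 CPM to 33.2 ± 2.50 with piericidin, 32.8 ± 3.76 with 3-NPA and 41.9 ± 0.42 CPM with antimycin A. Its 3-NPA call was lost in 4 of 6 such fits. Tnfaip3, which encodes the NF-kB inhibitor A20, rose from 165 ± 17.6 CPM to 234 ± 30.2 with piericidin and 273 ± 33.0 CPM with antimycin A. It was the 1 gene that rose among 11 feedback targets in each case, and Icam1 fell with piericidin (-0.68 ± 0.15, edgeR adjusted p = 0.00115). Of 11 genes listed under NF-kB subunits and kinases, Tab2, which encodes neither, rose with piericidin (0.36 ± 0.10) and antimycin A (0.37 ± 0.10). These calls on Tab2 were lost in 3 of 6 and 2 of 6 fits that left out 1 library, with adjusted p up to 0.149 and 0.112.

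Of 17 adaptors, Siva1, a pro-apoptotic partner of CD27, fell with piericidin (-0.96 ± 0.26, edgeR adjusted p = 0.00981) and antimycin A (-1.10 ± 0.26, edgeR adjusted p = 0.00263). With piericidin Ripk1 rose (0.58 ± 0.15). Its call and that of Siva1 with piericidin were each lost in 1 of 6 such fits, with adjusted p up to 0.0540 and 0.103. Also with piericidin, Rbck1 (-0.30 ± 0.10, lost in 5 of 6 such fits) and Traf4 (-0.44 ± 0.14, named after its value was seen) fell. With 3-NPA, 0 genes were called by edgeR among the ligands, adaptors, NF-kB subunits and feedback targets (0, 1, 1 and 1 at an unadjusted p under 0.05, 0 by DESeq2 in each). Of 9 co-stimulators of other families, Cd2 fell with 3-NPA (-0.39 ± 0.09, edgeR adjusted p = 0.00577). Icos rose with piericidin (0.28 ± 0.08, edgeR adjusted p = 0.0205) and antimycin A (0.24 ± 0.08, edgeR adjusted p = 0.0470), Slamf6 fell with piericidin (-0.45 ± 0.13) and Cd44 rose with antimycin A (0.40 ± 0.11). Leaving out 1 library ended the calls on Cd2, Slamf6 and Icos with piericidin in 3 of 6 fits each, on Cd44 in 2 of 6 and on Icos with antimycin A in 6 of 6, with adjusted p up to 0.183. Foxp3 rose with piericidin (0.51 ± 0.09, edgeR adjusted p = 1.69e-04) and antimycin A (0.34 ± 0.09, edgeR adjusted p = 0.00930). Cd3e rose with both (0.30 ± 0.08 and 0.37 ± 0.08), and Il2ra fell with antimycin A (-0.32 ± 0.07, edgeR adjusted p = 0.00102). Macrophage markers summed to 15.3 to 25.4 CPM, B cell markers to 4.37 to 16.02 CPM and natural killer cell markers to 0 to 1.79 CPM over the 12 in vitro libraries. Ms4a1, Ncr1, Klrb1c, C1qb and C1qc were at 0 in each of them.

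Positions were compared last. Of the 8 genes, 5 lie on chromosome 4 of mm10, and the remaining ones on chromosomes 6 (Cd27), 19 (Fas) and 2 (Traf1), each annotated as protein-coding. Tnfrsf4 (156013843 to 156016612) and Tnfrsf18 (156026164 to 156028895) are neighbours on the plus strand, 9.55 kb apart with 0 protein-coding genes between them. Tnfrsf1b lies at 145213463 to 145246870, Tnfrsf9 at 150914562 to 150946102 and Tnfrsf25 at 152115934 to 152120119.

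Across the 28 libraries, with each gene centred on its mean in its own table, Tnfrsf18 was most like Tnfrsf4 among 8019 genes (Pearson r = 0.76 of log2 CPM), and next most like Relb (r = 0.73). These correlations are descriptions over libraries that share groups and depth, and the group differences above are part of them. Tnfrsf4 was most like Cish (r = 0.82) and Ncoa7 (r = 0.79), and Traf1 most like Relb (r = 0.79) and Myo1c (r = 0.70). Tnfrsf1b was most like Inpp5f and Pdcd1 (r = 0.85 each), Cd27 like Gimap1 (r = 0.84) and Ypel3 (r = 0.82), and Tnfrsf9 like Prmt2 (r = 0.77) and Zfyve16 (r = 0.76). Tnfrsf25 was most like Ten1 and Cnppd1 (r = 0.79 each), and Fas like R3hdm2 (r = 0.73) and Ino80b (r = 0.72). Among the 8 genes, Tnfrsf9 and Cd27 had r = 0.71, while Tnfrsf4 and Tnfrsf1b had r = -0.35.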

How the data were processed

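All values start from the deposited read counts, 1 whole number per Ensembl gene and library in 3 tables of the authors (28 libraries). Per the submitters' processing notes, the tools were bcl2fastq, TopHat, HTSeq and edgeR, and the build was mm10. Versions and the strand setting are not given in the sources used here. Per the labels' protocols, RISP_WT and RISP_KO libraries were made with the Takara kit and the others with the NEB kit. The 11 sample columns of another table match no sample label and were left out. No 2 libraries were duplicates.

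Groups came from the labels. The main test was edgeR 4.0.16 under R 4.3.3 (filterByExpr, TMM, glmQLFTest, Benjamini-Hochberg over all genes tested), with DESeq2 1.42.0 as an alternative. Each knockout was fitted in its own table, the inhibitors in 1 fit of 12 libraries, and the difference of knockout effects in 1 fit of 16. Intervals of log2 fold changes are at 95% confidence. Length is the deposited gene length. The coefficient of variation between libraries was 14.7% (in vitro) to 21.6% (3-week-old).

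The 8 genes, the pathway and marker lists and the tests were chosen with earlier results of these data known. Named are the 8 genes, Uqcrfs1, the genes behind the sort, of each list and comparison the called genes with the smallest p (at most 3), or else uncalled ones with the smallest p (at most 2, given mostly as counts; lists are not reported for the 3 pairs of inhibitors), and for each of the 8 genes the 2 genes with the highest correlation. Of the 43430 gene IDs, 42462 had a symbol in GENCODE M21. Alternatives were DESeq2, RLE size factors, no filter, a filter of 1 CPM, the replicate number as a block, only the 2 groups compared, a covariate for other cells and leaving out libraries. Tested on simulated data, edgeR found 28.4% of the 1.5-fold and 64.2% of the 2-fold changes put into the RISP_KO design (13621 genes), 43.3% and 59.7% in that of the chimeras (13977 genes), 43.3% and 68.7% in that of antimycin A (11440 genes), and 11.9% and 44.8% in that of the difference of knockout effects (15133 genes).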

Additional observations from a re-analysis of the deposited data

Results flagged for a closer look

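Tnfrsf9 read 553 CPM in RISP_KO replicate 4, above the other 3 libraries of its group (423 to 442 CPM) by a gap that exceeds Dixon's 95% critical value for 4 samples. It was 1 of 36 groups of 4 libraries checked, and chance gives about 1 in 20.

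The knockout effect differed between chimeras and 3-week-old mice for 4 of the genes checked, by a test of the difference itself in edgeR. The chimera effect minus the 3-week-old effect was -0.97 for Tnfrsf4, -0.58 for Tnfrsf18, -0.46 for Traf1 and 1.20 for Uqcrfs1, on the log2 scale. Of all 15580 genes tested, 3.27% had a called difference. With the covariate for other cells 0 of the 8 genes were called, and Uqcrfs1 was not called either. With the replicate number as a block 1 of the 8 was called. The Tnfrsf18 call was lost in 12 of 16 fits that left out 1 library. Age, chimerism and library kit cannot be told apart in these differences. Whether that of Uqcrfs1 reflects the extent of the deletion was not tested.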

How the results depend on the processing

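Of 15 called results on the 8 genes, 217 alternative fits gave 190 with the same direction and call, 27 without the call and 0 reversed. Of 57 uncalled results, 775 fits gave 738 of the same kind, 6 newly called and 31 reversed. Of 38 called results on the pathway genes, 558 fits kept direction and call in 458 and lost the call in 100. The simulations found 11.9% (difference of the knockout effects) to 43.3% (chimeras and antimycin A) of the 1.5-fold changes, in genes drawn at random. Recovery for the 8 genes themselves was not simulated. Their single-gene intervals, where uncalled, ended short of 1.5-fold for RISP_KO, chimeras and antimycin A against untreated. The furthest log2 limits were 0.555 (Tnfrsf9), -0.563 (Tnfrsf18) and 0.464 (Traf1) in that order. Elsewhere some reached past that size, so such a change may have been missed. Among them were Tnfrsf9 for the difference (-0.837) and Tnfrsf25 with 3-NPA (-0.738). The in vitro libraries were the shallowest, and there Fas rested on 83 to 193 counts a library. The cause of the changes with setting was not tested.

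DESeq2 called 2148 genes for RISP_KO, 436 in chimeras, 908 for the difference of the knockout effects, 672 with 3-NPA, 203 for antimycin A against piericidin, 788 for antimycin A against 3-NPA and 820 for piericidin against 3-NPA, where edgeR called 1364, 102, 509, 377, 86, 465 and 502. Of the 8 genes it called 3 in chimeras and 1 for antimycin A against piericidin. Without the filter on low counts, 208 genes were called in chimeras and 1 of the 8 for the difference of the knockout effects. The covariate for other cells gave 113 genes and 0 of the 8 for RISP_KO, 178 genes in chimeras, and 119 genes and 0 of the 8 for the difference. In the last fit Tnfrsf25 (0.0033), Cd27 (0.038) and Tnfrsf13c (-0.10) changed sign. Without RISP_Chimera_KO replicates 2 and 4, 247 genes were called in chimeras and 319 for the difference, where Tnfrsf18 was not called (-0.63, edgeR adjusted p = 0.0699). Tnfrsf4 with piericidin was -0.0044 without the filter and -0.0067 with a filter of 1 CPM.

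The labels say nothing of what a replicate number shares, and the numbers were not taken to pair the samples, since in no table did every same-numbered pair of libraries deviate together with r over 0.1. The r of such pairs was -0.249 to 0.0426 (3-week-old), -0.299 to 0.404 (chimeras) and 0.000374 to 0.112 (in vitro). In vitro, 18 of 18 same-numbered pairs had r above 0, against 9 of 36 others (-0.105 to 0.0562), and 10 of 12 libraries correlated best with a library of their own number, which is a hint from the data and not from the design. The block moved the counts in vitro from 377 to 481 genes (3-NPA) and from 465 to 603 (antimycin A against 3-NPA). With the replicate number as a block, 895 genes were called for RISP_KO, and 324 genes and 1 of the 8 for the difference. Tnfrsf18 (edgeR adjusted p = 0.129) and Traf1 (0.0630) lost their calls there, and the block ended no other call on the 8 genes. Among the pathway genes named it ended the calls on Nfkb2, Bcl3 and Cd2 for the difference and on Slamf6 in chimeras.

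Leaving out 1 library at a time, genes called ranged over 787 to 1486 (RISP_KO), 33 to 177 (chimeras), 323 to 627 (difference), 1009 to 1421 (piericidin), 130 to 295 (3-NPA), 1261 to 1613 (antimycin A), 43 to 75 (antimycin A against piericidin), 188 to 454 (antimycin A against 3-NPA) and 230 to 409 (piericidin against 3-NPA). The lowest of these were without RISP_WT replicate 1, RISP_Chimera_WT replicate 2 and RISP_WT replicate 3 for the 2 knockouts and their difference, and without replicate 3 of each inhibitor for piericidin and 3-NPA. Of the 8 genes, 0 to 1 were called in chimeras, 1 to 3 for the difference and 2 to 3 for antimycin A against 3-NPA. Small log2 fold changes crossed 0. For the difference this was Tnfrsf25 (-0.14 to 0.028). With piericidin these were Tnfrsf4 (-0.039 to 0.062), Tnfrsf25 (-0.28 to 0.015) and Uqcrfs1 (-0.61 to 0.12). With 3-NPA they were Tnfrsf18 (-0.056 to 0.085), Tnfrsf1b (-0.058 to 0.022), Cd27 (-0.11 to 0.020), Fas (-0.012 to 0.27), Traf1 (-0.053 to 0.082) and Uqcrfs1 (-0.098 to 0.47). With antimycin A they were Tnfrsf25 (-0.066 to 0.091) and Uqcrfs1 (-0.41 to 0.14). Antimycin A against piericidin had Tnfrsf1b (-0.016 to 0.061), Tnfrsf25 (-0.0066 to 0.28), Cd27 (-0.052 to 0.020) and Uqcrfs1 (-0.18 to 0.40). Piericidin against 3-NPA had Tnfrsf18 (-0.12 to 0.021) and Fas (-0.075 to 0.20), and antimycin A against 3-NPA had Tnfrsf4 (-0.018 to 0.022).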
